A study of Mus musculus with 2 samples.

Results

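The mitochondrial respiratory chain and ATP synthase are built from subunits encoded in the nucleus and in the mitochondrial genome. Droplet single-cell RNA sequencing was used to follow genes of this system in the stroma of mandibular lymph nodes of mice, which receive lymph from the head. Members were all genes whose symbol begins with Nduf, Uqcr, Cox4 to Cox8, Atp5, mt-Nd, mt-Co, mt-Cyt or mt-Atp, leaving out Ndufa4l2. This gave 100 of 27998 gene entries. Of these, 78 encode nuclear subunits (36 of complex I, 8 of complex III, 19 of complex IV with Ndufa4 counted there, and 15 of complex V), 7 are complex I assembly factors (Ndufaf), 2 are Atp5s and Atp5sl, and 13 lie on the mitochondrial genome.

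The sham group was operated without haemorrhage, and the other group received subarachnoid haemorrhage (SAH) by infusion of the animal's own blood. Each group is 1 library made from the pooled nodes of 20 mice taken at 24 h. Both libraries were depleted of CD45-bearing cells and enriched with antibodies to CD31 and podoplanin on beads. Strain, sex and age are not given in the labels used here. Since there is 1 library a group, no difference below has a replicate check: intervals in brackets are exact 95% intervals of the ratio of SAH to sham and cover counting error only, and no p-value was computed.

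The labels call the cells lymphatic endothelial cells, but the libraries also held blood endothelial and fibroblastic cells, so classes were gated on single transcripts. A barcode counted as a cell where it had 500 or more genes with a UMI (unique molecular identifier, 1 for each captured molecule) and no more than 10% of its UMIs from the mitochondrial genome. That limit uses the same mitochondrial genes that are described here. Lymphatic endothelial cells (LECs) had at least 1 UMI of Prox1, the transcription factor of lymphatic identity. The sham library had 2364 of them and the SAH library 2562. Blood endothelial cells (BECs; no Prox1, at least 1 UMI of Pecam1 and at least 1 of Ly6c1 or Flt1) numbered 6329 and 6480. Fibroblastic stroma (no Pecam1 or Prox1, at least 3 UMIs of the matrix genes Dcn and Col3a1 together) numbered 1532 and 1631 cells. Of kept cells, 91.6% and 93.2% fell into these classes.

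Other markers followed the gates in part. Mmrn1, a lymphatic gene, was at 754 and 940 CPM (UMIs per 1000000 UMIs of the class) in LECs and at 26.8 CPM or less in the other classes, and Emcn, a blood endothelial gene, was at 797 CPM or more in BECs and at 203 CPM or less elsewhere. Lyve1, a lymphatic gene, was at 572 and 987 CPM in LECs and at 41.6 CPM or less elsewhere. Lum, a fibroblast gene, was at 870 and 466 CPM in fibroblastic stroma and at 50.6 CPM or less elsewhere. Some other listed markers did not separate the classes. Ccl21a, a chemokine listed as a lymphatic marker, was at 941 and 1657 CPM in LECs, 3012 and 5300 CPM in BECs and 10532 and 15736 CPM in fibroblastic stroma, so the summed level of the 6 lymphatic markers was highest in fibroblastic stroma. Kdr, listed for BECs, was at 743 and 820 CPM in LECs and 719 and 656 CPM in BECs. The summed level of the 7 fibroblast markers was 1247 and 1267 CPM in LECs and 1092 and 1925 CPM in BECs, against 19158 and 16996 CPM in fibroblastic stroma, with no marker at 0. The summed level of 4 epithelial and salivary markers was 156 to 254 CPM in the sham classes and 168, 878 and 626 CPM in SAH LECs, BECs and fibroblastic stroma. The higher sums came from Smr3a (85.2 and 494 CPM in BECs) and Bpifa2 (102 and 381 CPM in BECs, 101 and 535 CPM in fibroblastic stroma). Epcam and Krt18 were lower in SAH in each class, in fibroblastic stroma at 20.5 and 2.23 CPM and at 46.6 and 3.44 CPM. Summed, the 5 mural markers were at 217 and 180 CPM in LECs, 199 and 196 CPM in BECs and 1376 and 912 CPM in fibroblastic stroma. The 5 leukocyte markers together stayed between 11.8 and 49.5 CPM. The 2 erythroid markers summed to 281 and 417 CPM in LECs, 955 and 880 CPM in BECs and 366 and 656 CPM in fibroblastic stroma. The 2 cycling markers were lower in SAH, at 38.3 and 13.8 CPM in LECs, 32.0 and 7.72 CPM in BECs and 9.32 and 2.97 CPM in fibroblastic stroma. Their part in the results was not tested. SAH cells were also deeper, with median UMIs of 6872 and 8193 in LECs, 4602 and 4754 in BECs, and 4768 and 6336 in fibroblastic stroma. Over the whole libraries 17.6% of sham and 15.0% of SAH barcodes exceeded the mitochondrial limit. The libraries had 76 barcode sequences in common, and leaving those cells out changed none of the pooled ratios by more than their counting intervals.

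Complex I passes electrons from NADH to ubiquinone, complex III passes them to cytochrome c and complex IV to oxygen, and the proton gradient that results drives ATP synthesis by complex V. Complexes I, III, IV and V combine nuclear and mitochondrial subunits, whereas complex II is wholly nuclear. The mitochondrial genome is transcribed from each strand as long precursors that are cut into single RNAs, except that mt-Atp8 with mt-Atp6 and mt-Nd4l with mt-Nd4 remain joined on shared messengers.

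The shared mitochondrial messengers are shown because the genes on them had opposite SAH:sham ratios. Both stretches come from the mm10 (GRCm38) genome, with the bases that belong to both reading frames in capitals and 15 bases on each side. The mt-Atp8 and mt-Atp6 frames overlap by 43 bases and the mt-Nd4l and mt-Nd4 frames by 7 bases.
mt-Atp8 and mt-Atp6 (chrM:7912-7984, plus strand): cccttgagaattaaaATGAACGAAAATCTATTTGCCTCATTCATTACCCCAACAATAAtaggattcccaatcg
mt-Nd4l and mt-Nd4 (chrM:10152-10188, plus strand): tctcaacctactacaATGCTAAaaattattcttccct

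Nuclear subunit genes took a larger share of UMIs in the SAH library in each class, and mitochondrial genes a smaller share. In LECs the nuclear subunits made up 1.92% and 2.16% of all UMIs in the sham and SAH library, a ratio of 1.13 [1.12, 1.13]. In BECs the shares were 1.79% and 1.95% (ratio 1.09 [1.09, 1.09]), and in fibroblastic stroma 1.57% and 1.90% (ratio 1.21 [1.2, 1.22]). The 13 mitochondrial genes made up 4.77% and 3.84% of UMIs in LECs, 4.97% and 4.13% in BECs and 4.88% and 4.27% in fibroblastic stroma. Their ratios were 0.805 [0.803, 0.808], 0.832 [0.830, 0.834] and 0.875 [0.871, 0.879]. The classes come from the same 2 libraries, so agreement between them is not independent. All values are shares of a class's UMIs, so a lower share of 1 gene set raises the others.

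Single cells had the same order. The median LEC had 1.86% of its UMIs from nuclear subunits in sham and 2.11% among SAH cells. The medians were 1.70% and 1.90% in BECs and 1.48% and 1.84% in fibroblastic stroma. For mitochondrial genes the median shares were 4.54% and 3.60% in LECs, 4.72% and 3.86% in BECs, and 4.68% and 4.08% in fibroblastic stroma. Pooled over cells, each nuclear subunit UMI was matched by 2.48 mitochondrial UMIs in sham and 1.77 in SAH LECs, by 2.78 and 2.12 in BECs, and by 3.10 and 2.25 in fibroblastic stroma. The quartile ranges of cells overlapped between libraries in each class.

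**Figure D1:**
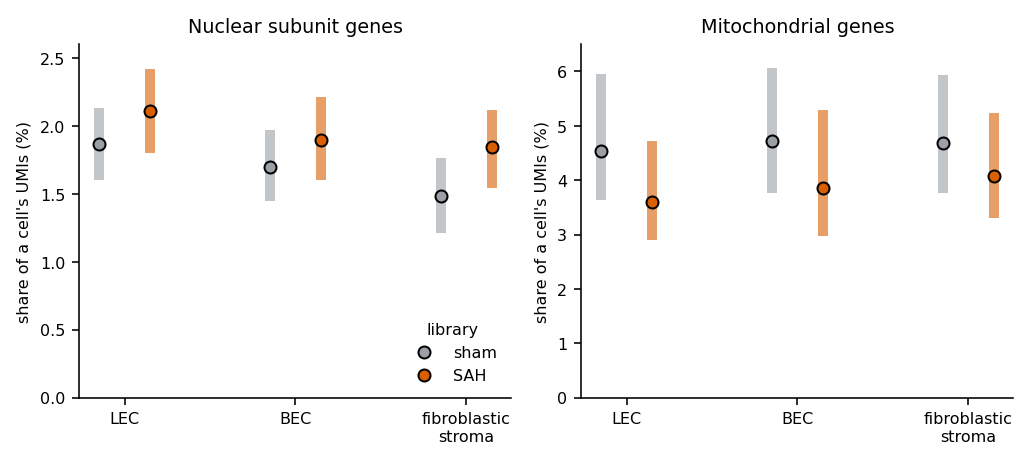
Share of a cell's UMIs (%) from the 78 nuclear subunit genes (left) and the 13 mitochondrial genes (right) by class. Circles are medians over cells and bars run from the first to the last quartile boundary, for the sham (grey) and SAH (orange) library, with 1 library a group. The SAH median is higher for nuclear and lower for mitochondrial genes in each class, for example 1.86% and 2.11% for nuclear genes in LECs, while the bars overlap.

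Among nuclear subunits with a mean of at least 20 CPM over both libraries, 27 of 71 were at least 1.2-fold higher in SAH LECs and 2 were at least 1.2-fold lower. Over all 6511 genes assessed in LECs, 20.5% were that much higher and 18.1% that much lower. In BECs 23 of 71 were higher and 6 lower, beside 20.1% and 20.2% of all genes. In fibroblastic stroma 35 of 72 were higher and 1 was lower, beside 18.7% and 28.3% of all genes. The median log2 ratio of the assessed subunits was 0.21 in LECs, 0.17 in BECs and 0.26 in fibroblastic stroma, and that of all assessed genes -0.01, -0.02 and -0.08. At 1.5-fold, 3, 2 and 5 subunits were higher (5.18%, 4.93% and 5.14% of all genes) and 1, 1 and 0 were lower (2.49%, 2.04% and 5.99%). Few subunits therefore passed 1.5-fold.

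Of the 71 subunits assessed in each class, 20 were at least 1.2-fold higher in all 3 (11.9% of all genes), and only Cox5a was at least 1.2-fold lower in all 3 (11.2% of all genes). The 20 comprised 12 of complex I (Ndufa1, Ndufa2, Ndufa3, Ndufa5, Ndufa7, Ndufa10, Ndufa13, Ndufc1, Ndufs7, Ndufs8, Ndufv1 and Ndufv3), 2 of complex III (Uqcr10 and Uqcrq), 3 of complex IV (Cox6a1, Cox7b and Cox7c) and 3 of complex V (Atp5e, Atp5j2 and Atp5k).

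Nuclear subunit transcripts are short, with a median of 865 bases against 3228 for the other genes assessed in LECs, and a similar GC content (51.0% and 49.7%). Short genes as a group were also more often at least 1.2-fold higher in the SAH library than all genes. Of assessed genes of at most 1000 bases, 29.4% in LECs, 27.8% in BECs and 34.5% in fibroblastic stroma were at least 1.2-fold higher, against 18 of 42, 14 of 42 and 21 of 43 nuclear subunits of that length. These short genes include the subunits. They were at least 1.2-fold lower in 20.5%, 25.5% and 20.6%, beside 18.1%, 20.2% and 28.3% of all genes. Their median log2 ratio was 0.06, 0.06 and 0.12. Among genes of up to 600 bases, the median log2 ratio in LECs was 0.34 for 14 nuclear subunits and 0.09 for 58 other genes. Between 600 and 1000 bases it was 0.18 for 28 subunits and 0.01 for 330 other genes. Between 1000 and 2000 bases it was 0.24 for 22 subunits and -0.02 for 1298 other genes. Between 2000 and 4000 bases the gap was smaller in the endothelial classes, on 5 subunits. It was 0.07 for these and -0.0032 for 2284 other genes in LECs, and -0.02 and -0.04 in BECs. In fibroblastic stroma the medians of that bin were 0.07 and -0.08. High GC went with higher ratios in other genes, while the subunits did not rise with GC throughout. Above 56% GC the median in LECs was 0.30 for 13 subunits and 0.14 for 1173 other genes. Between 44 and 48% GC it was 0.03 for 12 subunits and -0.05 for 1315 other genes. At 44% GC or less it was 0.25 for 6 subunits and -0.07 for 1311 other genes. The part of length and GC in the subunits' ratios was not tested beyond these bins.

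Complex I core subunits, which carry the flavin and iron-sulfur centres, had pooled ratios of 1.18 [1.15, 1.21], 1.14 [1.12, 1.17] and 1.23 [1.18, 1.28] in LECs, BECs and fibroblastic stroma. In sham and SAH, Ndufs7, an iron-sulfur subunit next to the quinone site and the core gene with most UMIs, was at 124 and 156 CPM in LECs, 106 and 132 CPM in BECs and 123 and 153 CPM in fibroblastic stroma, with ratios of 1.26, 1.25 and 1.24. Ndufs8, another iron-sulfur subunit, had ratios of 1.25, 1.22 and 1.38, and Ndufv1, which binds NADH and flavin, of 1.22, 1.21 and 1.28. Ndufs1, which holds iron-sulfur clusters of the NADH arm, had the lowest core ratios in BECs and fibroblastic stroma (0.989 [0.907, 1.08] and 0.919 [0.775, 1.09]), and Ndufs3 the lowest in LECs (1.04 [0.980, 1.11]). These 3 intervals include 1.

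The 29 accessory subunits of complex I, which surround the core, had pooled ratios of 1.15, 1.1 and 1.21 and spread widely. Ndufa3 was the highest in each class, at 153 and 311 CPM in LECs, 125 and 258 CPM in BECs and 125 and 267 CPM in fibroblastic stroma. Its ratios of 2.03 [1.94, 2.12], 2.06 [1.99, 2.13] and 2.14 [1.99, 2.31] were the highest of all assessed nuclear subunits. Ndufv3, a subunit of the NADH arm, was at 137 and 175 CPM in LECs, 116 and 157 CPM in BECs and 151 and 237 CPM in fibroblastic stroma (ratios 1.28, 1.36 and 1.56). At the low end, Ndufa8, a subunit of the intermembrane space side, was at 245 and 207 CPM in LECs, 473 and 377 CPM in BECs and 153 and 135 CPM in fibroblastic stroma, with ratios of 0.844 [0.810, 0.879], 0.797 [0.780, 0.815] and 0.879 [0.814, 0.950]. Ndufc2, the accessory gene with most UMIs, was at 421 and 387 CPM in LECs, 523 and 409 CPM in BECs and 250.2 and 213 CPM in fibroblastic stroma, lower in BECs (0.781 [0.765, 0.798]) than the 1.2-fold bound and within it in LECs and fibroblastic stroma (0.919 and 0.851). Subunits of 1 complex therefore had ratios on both sides of 1.

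The 7 Ndufaf assembly factors, which build complex I but are not part of it, were low. Their pooled ratios were 1.08 [1.02, 1.13], 1.01 [0.976, 1.05] and 1.05 [0.972, 1.14], and only the LEC interval lay above 1. Of the 3 assessed, Ndufaf2 was at 30.6 and 39.4 CPM in LECs (ratios 1.29, 1.19 and 1.22). Ndufaf3, with most UMIs, had ratios of 1.1 [0.994, 1.22], 1.08 [0.998, 1.16] and 1.09 [0.917, 1.30], each interval including 1. Ndufaf4 was lower, at 39.2 and 32.0 CPM in LECs, 38.7 and 29.1 CPM in BECs and 32.4 and 23.9 CPM in fibroblastic stroma (ratios 0.817, 0.751 and 0.737). Ndufaf1, Ndufaf5, Ndufaf6 and Ndufaf7 were below the 20 CPM limit, as were Atp5s and Atp5sl, which are not structural subunits of the synthase.

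Complex III subunits had the highest pooled ratios of any complex, 1.19 [1.17, 1.2], 1.15 [1.14, 1.16] and 1.28 [1.25, 1.31]. Uqcrh, the hinge protein that meets cytochrome c1 and the gene with most UMIs, was at 439 and 498 CPM in LECs, 459.8 and 496 CPM in BECs and 359 and 457 CPM in fibroblastic stroma (ratios 1.14, 1.08 and 1.27). Uqcrq, a small membrane subunit, was at 286 and 395 CPM in LECs, 225 and 288 CPM in BECs and 172 and 243 CPM in fibroblastic stroma (ratios 1.38, 1.28 and 1.41), and Uqcr10, another small subunit, had ratios of 1.23, 1.30 and 1.45. Uqcrc1, a core protein of the matrix side, had 1.21, 1.2 and 1.39. Its partner Uqcrc2 had 0.938 [0.885, 0.994], 0.949 [0.908, 0.992] and 0.963 [0.875, 1.06], and Uqcrfs1, the Rieske iron-sulfur protein, had 0.961 [0.904, 1.02], 0.945 [0.902, 0.990] and 0.973 [0.878, 1.08].

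Complex IV had lower pooled ratios, 1.09 [1.08, 1.1], 1.06 [1.06, 1.07] and 1.19 [1.18, 1.21], with members far apart. Cox6a1, the common isoform of subunit VIa, was at 202 and 335 CPM in LECs, 186 and 266 CPM in BECs and 141 and 229 CPM in fibroblastic stroma, with ratios of 1.66 [1.59, 1.72], 1.43 [1.39, 1.48] and 1.62 [1.51, 1.74]. Cox5a, an early-assembling subunit of the matrix side, was at 398 and 262 CPM in LECs, 444 and 289 CPM in BECs and 202 and 146 CPM in fibroblastic stroma, with ratios of 0.658 [0.636, 0.681], 0.650 [0.634, 0.666] and 0.725 [0.676, 0.778], the lowest of all assessed nuclear subunits in each class. Ndufa4, once counted in complex I, was singled out after its values were seen: it was at 797 and 603 CPM in LECs, 743 and 552 CPM in BECs and 470.2 and 411 CPM in fibroblastic stroma (ratios 0.757, 0.743 and 0.874). Cox6c, with most UMIs of the nuclear members, was at 790.0 and 951 CPM in LECs, 613 and 724 CPM in BECs and 743 and 979.8 CPM in fibroblastic stroma (ratios 1.2, 1.18 and 1.32). Cox7b had ratios of 1.30, 1.31 and 1.44, Cox6b1 of 1.14, 1.12 and 1.19, Cox7a2 of 1.15, 1.14 and 1.19 and Cox8a of 1.03, 1.06 and 1.1. Cox7a2l, a factor that joins complexes III and IV into supercomplexes, had 1.00 [0.966, 1.04], 0.990 [0.965, 1.02] and 1.06 [0.994, 1.12], each interval including 1.

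Complex V had pooled ratios of 1.12 [1.11, 1.13], 1.08 [1.07, 1.09] and 1.2 [1.18, 1.22]. Atp5k, the e subunit of the membrane part, was at 180.4 and 309 CPM in LECs, 150.1 and 241 CPM in BECs and 146 and 257 CPM in fibroblastic stroma (ratios 1.71 [1.64, 1.79], 1.61 [1.55, 1.66] and 1.76 [1.64, 1.89]). Atp5e, the epsilon subunit of the central stalk and the gene with most UMIs, was at 510.2 and 735 CPM in LECs, 476 and 651 CPM in BECs and 500.3 and 728 CPM in fibroblastic stroma (ratios 1.44, 1.37 and 1.45). Atp5j, the coupling factor 6 subunit, had ratios of 1.19, 1.14 and 1.14, and Atp5c1, the gamma subunit of the rotating stalk, 0.957, 0.966 and 1.07. The alpha and beta subunits of the catalytic head, chosen here for their role after their values were seen, were close to 1. Atp5a1 (alpha) had ratios of 0.951, 0.942 and 1.05 and Atp5b (beta) of 0.945, 1.00 and 1.06. Atp5g1, Atp5g2 and Atp5g3 encode the same mature c subunit of the rotor. Atp5g3 had the lowest ratios of complex V, 0.893 [0.858, 0.930], 0.789 [0.762, 0.817] and 0.884 [0.822, 0.951], at 194 and 153 CPM in BECs. Atp5g1 had ratios of 0.951, 0.929 and 1.08 and Atp5g2 of 0.958, 0.943 and 1.17, below 1 in LECs and BECs and above 1 in fibroblastic stroma.

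**Figure D2:**
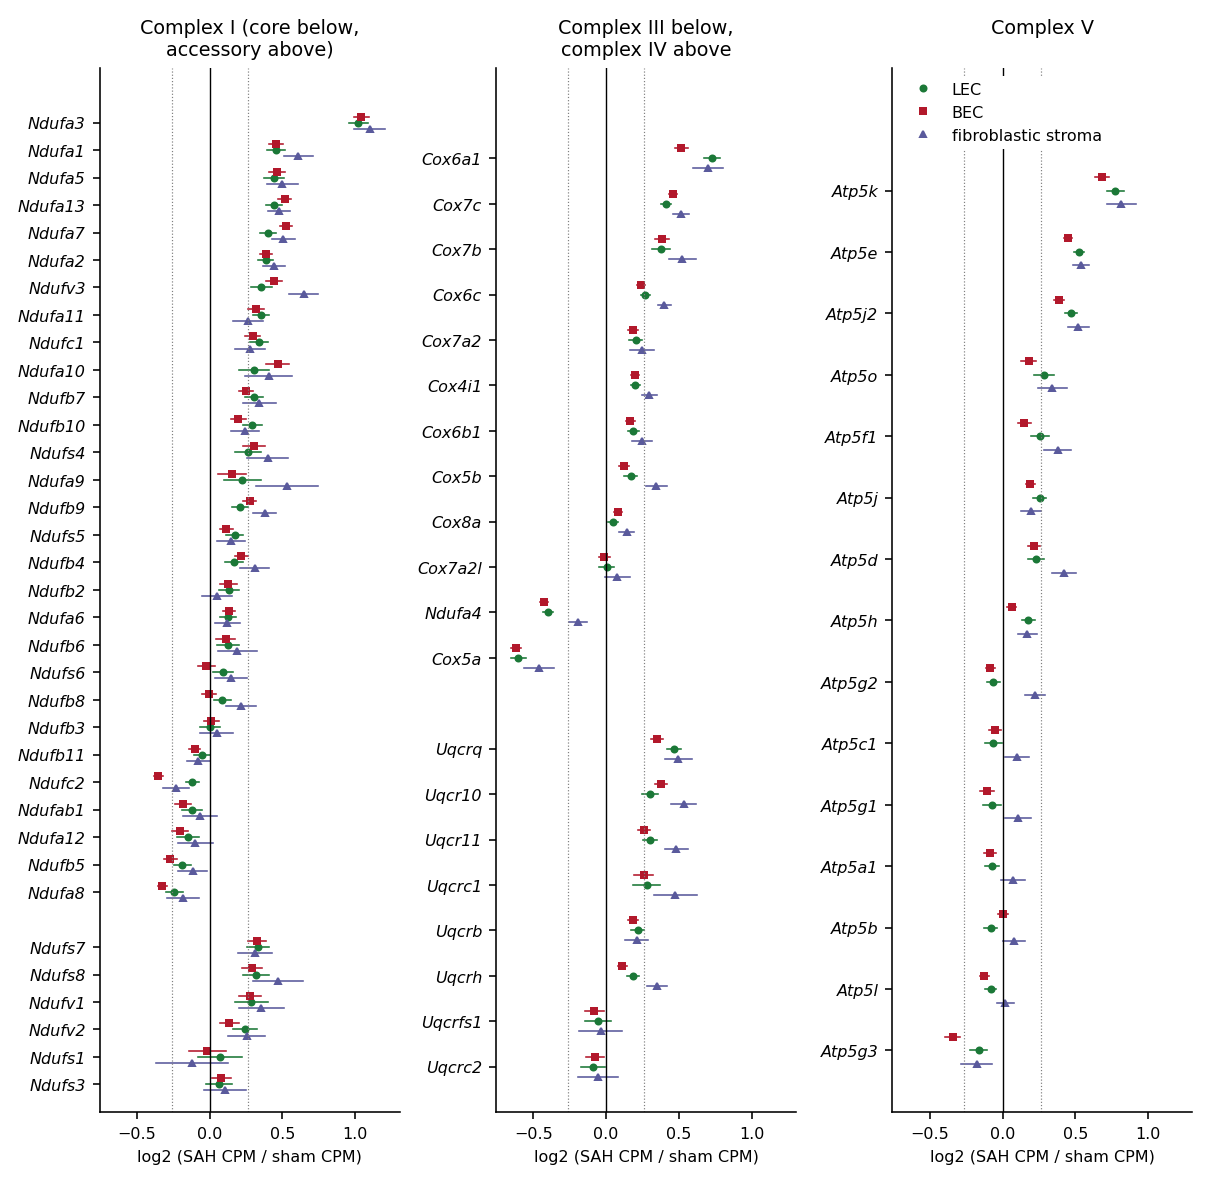
log2 ratio of SAH to sham CPM for nuclear subunit genes assessed in LECs, by complex. Circles, squares and triangles are LECs, BECs and fibroblastic stroma, lines are exact 95% counting intervals, and dotted lines mark 1.2-fold. Ndufa3, Cox6a1 and Atp5k lie farthest to the right of 0 in their complexes in each class, and Cox5a, Ndufa4, Ndufa8 and Atp5g3 lie to the left in each class.

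Tissue isoforms of complex IV differed in level between classes. Cox4i1, the common isoform of subunit IV, was at 713 and 819 CPM in LECs, 649 and 745 CPM in BECs and 638 and 784 CPM in fibroblastic stroma (ratios 1.15, 1.15 and 1.23). Its alternative Cox4i2, known from lung, pericytes and oxygen-sensing cells, was at 1.02 and 1.81 CPM in LECs, 6.24 and 5.08 CPM in BECs and 17.6 and 4.74 CPM in fibroblastic stroma. The ratios were 1.76 [1.00, 3.22], 0.813 [0.667, 0.991] and 0.269 [0.191, 0.373]. UMIs of Cox4i2 were found in 3.72% of sham and 2.21% of SAH fibroblastic cells, in 1.63% and 1.47% of BECs and in 0.635% and 0.976% of LECs, at the median depths given above. LECs, of which Cox4i2 is not a known marker, had the lowest share.

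Fibroblastic cells with at least 2 UMIs of the mural genes Notch3 and Rgs5, and outside the Pi16 and Ccl19 gates, held 88 of the 140 sham and 19 of the 51 SAH UMIs of Cox4i2 in the class. In this gate (236 sham and 134 SAH cells) Cox4i2 was at 82.2 and 25.3 CPM, a ratio of 0.308 [0.177, 0.510]. Rgs5 and Notch3 were lower there too, with ratios of 0.682 and 0.427, although both define the gate. The gated SAH cells were deeper (median UMIs 4222 and 5423), and the part of depth or of the gate's makeup in the Cox4i2 ratio was not tested. In cells with at least 3 UMIs of Ccl19 and no Pi16 (818 sham and 1175 SAH cells) Cox4i2 was at 7.94 and 3.43 CPM. These cells held 40 of the 140 sham and 30 of the 51 SAH UMIs of Cox4i2. They also held 3683 and 5162 UMIs of Rgs5, against 1370 and 655 in the Notch3 and Rgs5 gate. Mural transcripts were therefore not confined to that gate. In BECs it was highest in cells with the arterial connexins Gja4 or Gja5 and without Chst4, at 15.9 and 11.0 CPM (ratio 0.692 [0.538, 0.886]). Rgs5 (208 and 174 CPM) and Notch3 (40.5 and 34.7 CPM) were also highest there among the BEC gates. In BECs with Chst4 the ratio of Cox4i2 lay above 1, at 7.29 [2.59, 28.3] on 4 sham and 33 SAH UMIs, and Rgs5 was higher there too (32.2 and 74.7 CPM). The part of mural transcripts in these values was not tested.

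Cox6b2, best known from testis, was at 5.33 and 5.06 CPM in LECs, 2.30 and 4.02 CPM in BECs and 26.5 and 28.8 CPM in fibroblastic stroma. It had UMIs in 10.9% of sham and 15.6% of SAH fibroblastic cells, in 3.72% and 3.94% of LECs and in 1.22% and 1.84% of BECs. Its fibroblastic CPM was 4.96 and 5.69 times that of LECs in the sham and SAH library. The muscle and testis isoforms Cox6a2, Cox7a1, Cox7b2, Cox8b and Cox8c did not exceed 0.466, 0.880, 0.108, 1.39 and 0.0929 CPM in any class and library, too few UMIs for a comparison.

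The mitochondrial genes had ratios on both sides of 1. In LECs, BECs and fibroblastic stroma 3 of 13 were at least 1.2-fold higher in SAH (mt-Co1, mt-Atp8 and mt-Nd4l in each), and 7, 7 and 4 were at least 1.2-fold lower. All genes had 20.5%, 20.1% and 18.7% higher and 18.1%, 20.2% and 28.3% lower, so the counts of higher members, and that of lower members in fibroblastic stroma, lie near the background. Summed by complex, the ratios were 0.782, 0.806 and 0.862 for the mt-Nd genes of complex I, 0.917, 0.928 and 0.945 for the mt-Co genes of complex IV and 0.646, 0.687 and 0.747 for the mt-Atp genes of complex V. mt-Cytb, the only mitochondrial subunit of complex III, was at 5481 and 4169 CPM in LECs, 5704 and 4742 CPM in BECs and 6528 and 5831 CPM in fibroblastic stroma (ratios 0.761, 0.831 and 0.893).

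mt-Atp6, the a subunit beside the rotor and the most counted member, was at 11220.1 and 7203 CPM in LECs, 12058 and 8226 CPM in BECs and 11212 and 8318 CPM in fibroblastic stroma. Its ratios of 0.642 [0.638, 0.646], 0.682 [0.679, 0.685] and 0.742 [0.735, 0.749] were the lowest in LECs, and those of mt-Nd4 (0.679, 0.678 and 0.711) the lowest in BECs and fibroblastic stroma. mt-Nd1 had ratios of 0.678, 0.702 and 0.791, mt-Nd3 of 0.750, 0.806 and 0.889 and mt-Co3 of 0.726, 0.764 and 0.826. mt-Co2, which receives electrons from cytochrome c, was at 6335 and 5182 CPM in LECs, 7318 and 6293 CPM in BECs and 6818 and 6010.0 CPM in fibroblastic stroma (ratios 0.818, 0.860 and 0.881). Against these, mt-Co1, the catalytic subunit, was at 5706 and 7464 CPM in LECs, 5274 and 6821 CPM in BECs and 5024 and 6257 CPM in fibroblastic stroma, with ratios of 1.31 [1.30, 1.32], 1.29 [1.29, 1.30] and 1.25 [1.23, 1.26]. mt-Nd2 (1.1, 1.15 and 1.18) and mt-Nd5 (1.11, 1.15 and 1.13) were also higher in SAH. mt-Nd6, the member on the other strand, was low at 48.5 and 42.3 CPM in LECs, 46.7 and 38.1 CPM in BECs and 35.2 and 35.2 CPM in fibroblastic stroma, and its ratios were 0.873 [0.796, 0.957], 0.815 [0.759, 0.876] and 1.00 [0.856, 1.17]. In genome order, higher and lower genes were interspersed.

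The genes joined on shared messengers went opposite ways. mt-Atp8 was at 68.9 and 85.6 CPM in LECs, 62.8 and 99.5 CPM in BECs and 61.7 and 106 CPM in fibroblastic stroma (ratios 1.24 [1.16, 1.33], 1.58 [1.5, 1.67] and 1.72 [1.54, 1.91]), while mt-Atp6 was lower. For each 100 UMIs of mt-Atp6 there were 0.614 UMIs of mt-Atp8 in sham and 1.19 in SAH LECs, 0.521 and 1.21 in BECs, and 0.551 and 1.27 in fibroblastic stroma. mt-Nd4l was at 159.7 and 232 CPM in LECs, 131 and 201 CPM in BECs and 139 and 223 CPM in fibroblastic stroma (ratios 1.45 [1.39, 1.52], 1.53 [1.48, 1.59] and 1.61 [1.5, 1.73]), against the lower mt-Nd4. For each 100 UMIs of mt-Nd4 there were 3.95 and 8.43 of mt-Nd4l in LECs, 3.61 and 8.17 in BECs, and 3.82 and 8.65 in fibroblastic stroma. Reads over the overlaps printed above belong to both genes, and how the counting assigned them is not given in the sources used here. Which transcript end was sequenced is unsettled as well (the labels describe the 5′ end, but cite a kit guide that may be for a 3′ kit), and it bears on which gene of a pair a read was assigned to. The opposite ratios are therefore those of counts assigned to each gene, not of separate messengers.

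Some members share sequence with other annotated genes. Of the 50-base stretches of mt-Co2, 100% also occur in another annotated gene of the GENCODE genome, and the share was 99.9% for mt-Co3, 99.5% for mt-Atp6, 98.8% for mt-Nd4l, 98.0% for mt-Nd3, 62.2% for mt-Nd4 and 51.1% for mt-Co1. It was 8.19% for mt-Nd2, 7.61% for mt-Nd5 and 0% for mt-Nd1, mt-Atp8, mt-Cytb and mt-Nd6. The copies sharing most with mt-Co1, mt-Co2, mt-Co3, mt-Atp6, mt-Nd3, mt-Nd4 and mt-Nd4l were not among the gene entries of the series. Genes with and without copies lay on both sides of 1: mt-Nd1 and mt-Cytb, with no such stretch, were lower in LECs and mt-Atp8 was higher. Among nuclear members Atp5l (68.5%), Atp5h (47.9%) and Uqcrb (43.2%) shared most. Of their copies, Gm10250 (a copy of Atp5h) was counted here, with 6 to 76 UMIs a class and library, and the part of copies in the members' counts was not tested. Ndufa3, Ndufa4 and Ndufa8 shared 0%, Atp5k 1.24%, Cox5a 3.36% and Cox6a1 12.3%.

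**Figure D3:**
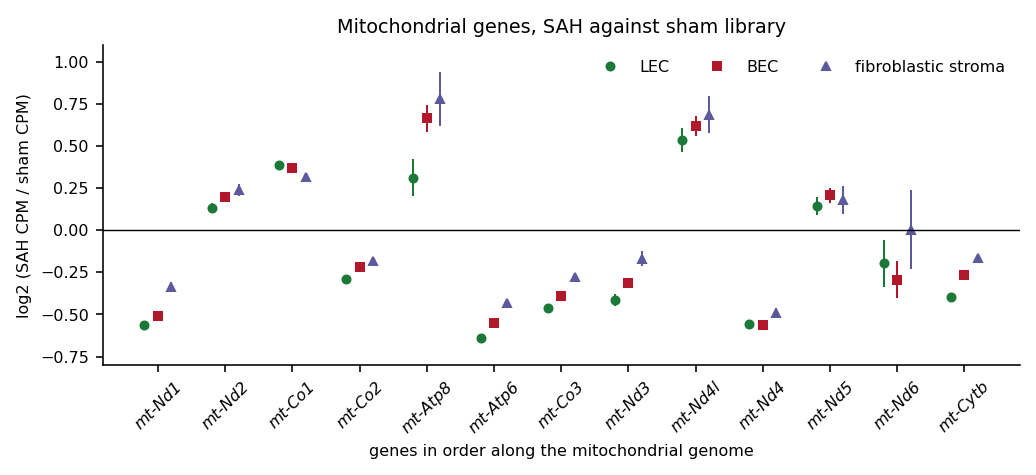
log2 ratio of SAH to sham CPM of the 13 mitochondrial genes, ordered by position on the mitochondrial genome. Circles, squares and triangles are LECs, BECs and fibroblastic stroma, and lines are exact 95% counting intervals. Neighbours lie on opposite sides of 0, with mt-Atp8 above and mt-Atp6 below, and mt-Nd4l above and mt-Nd4 below, in each class.

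Cells were next compared at matched depth, because SAH cells held more UMIs. Nuclear subunits were higher in SAH in each bin of total UMIs. In LECs the ratios were 1.12, 1.13 and 1.11 for cells of 2000 to 5000, 5000 to 10000 and 10000 to 20000 UMIs, in BECs 1.15, 1.1 and 1.07, and in fibroblastic stroma 1.13, 1.19 and 1.08. The mitochondrial ratio depended on depth: it was 0.979 [0.969, 0.989] in LECs of 2000 to 5000 UMIs (323 SAH cells) against 0.822 and 0.783 in the deeper bins. In fibroblastic stroma it was 0.998 [0.989, 1.01], 0.893 and 0.837, and in BECs 0.852, 0.826 and 0.808. Cells were also binned by mitochondrial share. Nuclear ratios were then 1.13, 1.07 and 1.09 in LECs with shares of 2 to 4, 4 to 6 and 6 to 8%, 1.13, 1.05 and 1.06 in BECs, and 1.22, 1.21 and 1.13 in fibroblastic stroma.

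**Figure D4:**
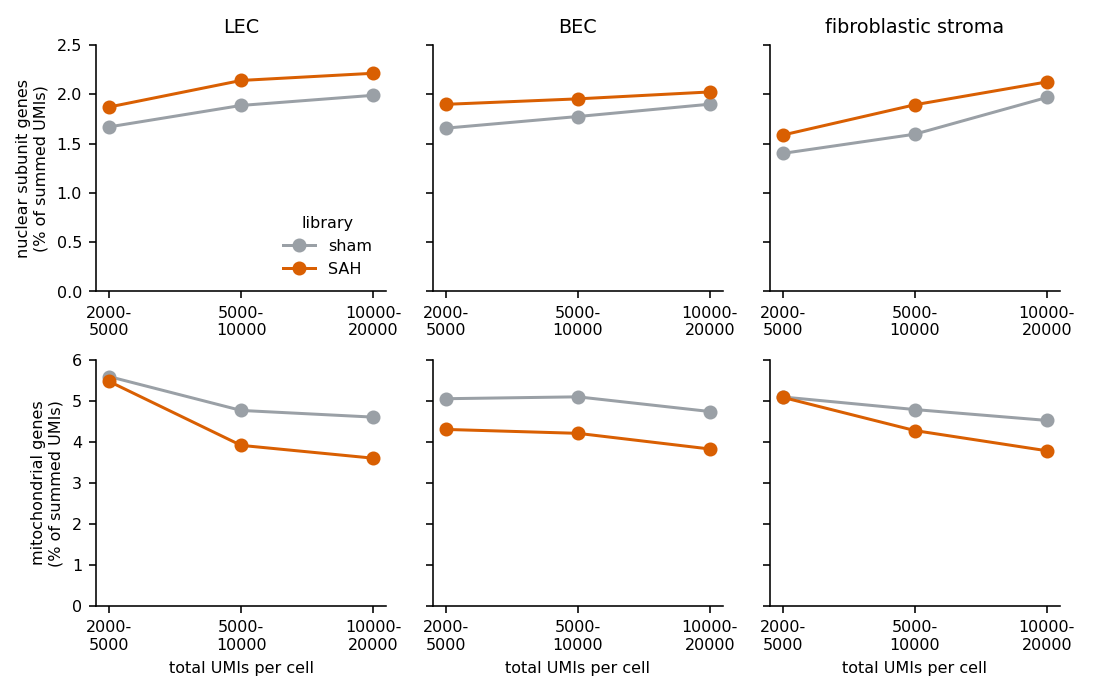
Share of summed UMIs (%) from nuclear subunit genes (top) and mitochondrial genes (bottom) in 3 bins of total UMIs per cell, for the sham (grey) and SAH (orange) library. The SAH line lies above the sham line for nuclear genes in each bin and class. For mitochondrial genes the lines meet in fibroblastic cells of 2000 to 5000 UMIs (ratio 0.998) and are apart in deeper cells.

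The direction was the same in finer gates. LECs were split by single transcripts of Ackr4 (a ceiling gene of the node's sinus), Madcam1 (a floor gene) and Marco (a gene of sinus macrophages and medullary sinus LECs). The nuclear ratio was 1.14 in cells with Ackr4 alone, 1.13 with Madcam1 alone, 1.17 with Marco alone and 1.14 with none, and the mitochondrial ratio 0.808, 0.842, 0.770 and 0.787. Madcam1 cells had the highest nuclear share of these LEC gates in both libraries, 2.09% and 2.36%. They were also the deepest of these gates, with median UMIs of 7895 and 9266. The nuclear share of LECs rose with depth, from 1.67 to 1.99% over the depth bins in sham. The part of depth in the Madcam1 share was not tested. In BECs with Chst4, a sulfotransferase of high endothelial venules, the nuclear ratio was 1.04 [1.04, 1.05] and the mitochondrial ratio 0.891. BECs with Gja4 or Gja5 had 1.09 and 0.807, and the rest 1.1 and 0.827. In fibroblastic stroma cells with Ccl19, a chemokine of the T-cell zone, had 1.21 and 0.870, and cells with Pi16, an adventitial gene, 1.16 and 0.926. Cells with Notch3 or Rgs5 had 1.16 and 0.990 [0.977, 1.00], and the rest 1.04 and 0.888.

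Single members mostly held their direction across these 11 gates. The gates split the same cells that gave the class ratios. Several of these members were named for extreme class ratios, so the agreement is partly built in. Ndufa3 had ratios of 1.68 to 2.18, Cox6a1 of 1.27 to 1.76, Atp5k of 1.07 to 1.90 and mt-Co1 of 1.21 to 1.48, all above 1. Cox5a had 0.533 to 0.738, Ndufa4 0.669 to 0.928, Ndufa8 0.681 to 0.955 and mt-Atp6 0.617 to 0.861, all below 1. Some intervals included 1, such as that of Atp5k in fibroblastic cells outside the gates (1.07 [0.867, 1.32]). Another was that of Ndufa8 in LECs with Marco alone (0.955 [0.787, 1.17]). Ndufa11, with 0.781 to 1.5, was below 1 in 1 gate.

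Levels were then compared between classes within each library, which does not set sham against SAH. In BECs against LECs 1 of 71 nuclear subunits was at least 1.5-fold higher in both libraries (6.52% of all 5662 genes) and 1 was at least 1.5-fold lower (9.5% of all genes). The higher member was Ndufa8, with BEC:LEC ratios of 1.93 [1.87, 1.99] (sham) and 1.82 [1.76, 1.89] (SAH). The lower member was Ndufa11, a membrane-arm subunit, with 0.506 [0.486, 0.527] (sham) and 0.493 [0.476, 0.510] (SAH). In fibroblastic stroma 0 of the 71 assessed subunits were at least 1.5-fold above LECs in both libraries (6.81% of all 5166 genes), a count that leaves out the low isoforms Cox6b2 and Cox4i2, and 5 of 71 were below (20.3% of all genes). These were Cox5a, with ratios of 0.508 and 0.559 in the sham and SAH library, Ndufa11 (0.597 and 0.560), Ndufc2 (0.595 and 0.551), Uqcrq (0.602 and 0.614) and Ndufa8 (0.624 and 0.651). At the other end, Ndufa13, named after its values were seen, had 1.2 and 1.24, Ndufv1 1.14 and 1.2 and Ndufv3 1.1 and 1.35. The median log2 ratio of the subunits was -0.14 in BECs and -0.23 in fibroblastic stroma against LECs, and that of all genes assessed -0.12 and -0.26.

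**Figure D5:**
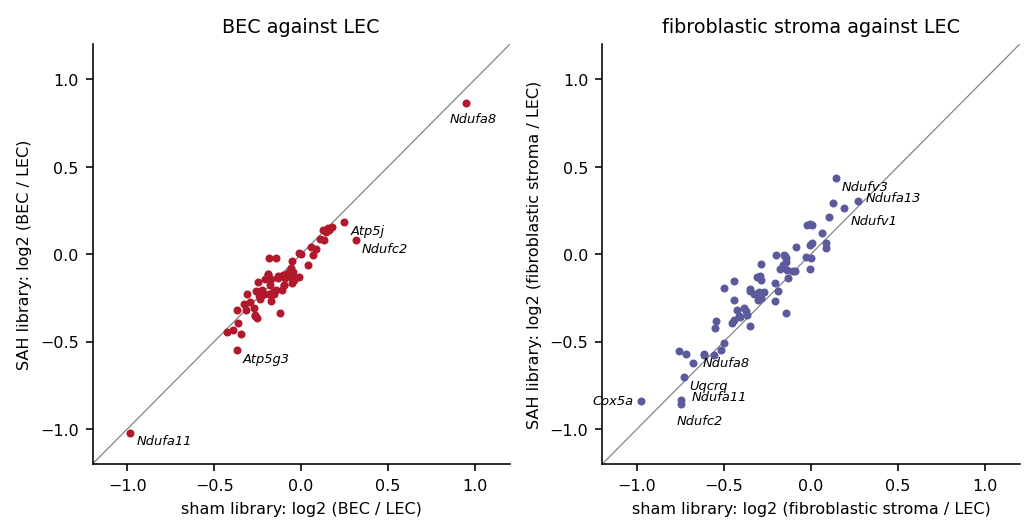
log2 ratio of BEC to LEC CPM (left) and of fibroblastic stroma to LEC CPM (right) for nuclear subunits assessed in all 3 classes, with the sham library on the horizontal and the SAH library on the vertical axis. The line marks equal ratios. Ndufa8 (1.93 and 1.82) and Ndufa11 (0.506 and 0.493) lie apart from the other members in BECs, and Cox5a is lowest in sham and Ndufc2 in SAH fibroblastic stroma.

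Related mitochondrial gene lists are set beside the same backgrounds, which in LECs were 20.5% of all genes higher and 18.1% lower. Differences between lists were not tested, and several counts lie near these shares. Of the 6 genes of complex II and the mobile carriers, which include cytochrome c1 (Cyc1) of complex III, 0 were at least 1.2-fold higher and 1 was lower in LECs. That was Cycs, cytochrome c, at 196 and 150.0 CPM in LECs, 171 and 124 CPM in BECs and 108 and 77.1 CPM in fibroblastic stroma (ratios 0.767, 0.727 and 0.715), while Cyc1 had 1.18, 1.12 and 1.11. Of 10 assessed assembly factors of complexes III and IV, 4 were higher and 0 lower in LECs, among them Surf1 (1.44, 1.46 and 1.36) and Cox20 (1.40, 1.39 and 1.26). Of 10 genes of mitochondrial transcription and biogenesis, 1 was higher and 4 lower: Slirp, which stabilises mitochondrial messengers, had ratios of 1.57, 1.49 and 1.66 and Myc of 0.583, 0.706 and 0.646. The pooled ratio of 77 mitochondrial ribosomal proteins was 1.04, 1.01 and 1.09, and that of 113 cytosolic ribosomal proteins 1.04, 1.08 and 1.16.

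Outside oxidative phosphorylation, 2 of 17 tricarboxylic acid cycle genes were higher and 5 lower in LECs, with the same 20.5% and 18.1% of all genes as background for each list below. Idh3b, a subunit of the NAD-dependent isocitrate dehydrogenase, had ratios of 1.43, 1.25 and 1.59 and Idh2, the NADP-dependent enzyme, of 0.673, 0.773 and 0.852. In glycolysis 5 of 12 genes were higher and 2 lower. The aldolase Aldoa was at 188 and 286 CPM in LECs, 179 and 267 CPM in BECs and 157 and 236 CPM in fibroblastic stroma (ratios 1.52, 1.49 and 1.51), and the glucose transporter Slc2a1 had 0.642, 0.773 and 0.947. Of 15 protein import genes 1 was higher and 4 were lower, with Tomm20 at 0.731, 0.736 and 0.736 and Tomm22, a receptor of the same outer-membrane gate, at 0.731, 0.715 and 0.764. Of 13 chaperones and proteases 2 were higher and 6 lower. The prohibitins Phb (1.76, 1.94 and 1.93) and Phb2 (0.738, 0.762 and 0.920), which form a joint ring complex, lay on opposite sides of 1. Of 14 antioxidant and uncoupling genes 2 were higher and 5 lower, with Sod2 at 0.734, 0.839 and 0.940 and Prdx3 at 0.695, 0.690 and 0.822. Of 8 mitophagy and dynamics genes 3 were higher and 0 lower, including Pink1 (1.42, 1.38 and 1.60) and Dnm1l (1.34, 1.41 and 1.01). In BECs and fibroblastic stroma, 2 and 3 of 17 tricarboxylic acid cycle genes were higher and 5 and 7 lower, and 3 of 12 and 6 of 11 glycolysis genes were higher and 3 and 2 lower. All genes had 20.1% higher and 20.2% lower in BECs, and 18.7% and 28.3% in fibroblastic stroma. In the list of nuclear RNA and dissociation genes, Malat1 had 0.834, 0.970 and 0.886 and the heat-shock gene Hspa1b 0.651, 0.685 and 0.574.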

How the data were processed

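The series holds 2 droplet single-cell libraries, 1 sham and 1 SAH, each from 20 pooled mice. The authors deposited raw UMI counts per gene and barcode, whole numbers with differing totals (72860197 sham and 78497486 SAH UMIs in 13952 and 13766 barcodes). Per the submitters' processing notes, Cell Ranger 5.0, STAR, Seurat 3.0.2 and the build mm10 were used, and per the file headers the counting software was version 5.0.0. Per the labels' protocols each cDNA was tagged at its 5′ end, but the kit guide cited there may be for a 3′ kit, so the sequenced end is unsettled. The annotation release and the treatment of introns are not given in the sources used here, nor is a read end recorded in the matrices.

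Counts of entries that share a symbol were summed, and 11157 sham and 11454 SAH cells passed the limits on genes and mitochondrial share. Counts were summed over the cells of a class and library and divided by all its UMIs to give CPM. A ratio is SAH over sham CPM, and its 95% interval, exact and conditional on the summed UMIs (binomial), covers counting error. Genes with a mean of at least 20 CPM over both libraries were assessed against 1.2-fold and 1.5-fold bounds. There is no test, since the cells within a library do not replicate the group. Doublets were kept in the main values, and removing them is an alternative. Scrublet (scanpy 1.11.5, expected rate 0.1) called 685 sham and 877 SAH barcodes, 4.91% and 6.37% of all barcodes. The called share was highest in LECs, at 12.6% and 15.4%. It was 4.25% and 5.90% in BECs and 0.914% and 0.920% in fibroblastic stroma. Named genes were all mitochondrial members and the fixed isoform list. In each role they were also the member with most UMIs and those with the highest and lowest ratio by class and between classes. In each related list they were the 2 assessed genes with the largest size of log2 ratio in LECs, in either direction. Other members are named as such or in counts. The values of 1 member are not reported here or plotted singly, although it is part of the pooled values and counts. The members, lists and rules were chosen with earlier results of these data known. Gene lengths, copies and positions came from GENCODE vM21 (GRCm38). Python 3.11.15, numpy 2.4.6, scipy 1.17.1, pandas 2.3.3 and matplotlib 3.10.9 were used. The ratios and intervals were tested on simulated counts with counting error only, which cannot check variation between libraries or mice.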

Additional observations from a re-analysis of the deposited data

Results flagged for a closer look

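Cox4i2, the alternative isoform of complex IV subunit IV, had SAH:sham ratios on different sides of 1 in classes of the same libraries: 1.76 in LECs, 0.813 in BECs and 0.269 in fibroblastic stroma. With 1 library a group every sample of a class goes 1 way by construction, and the difference between classes was not tested. The LEC value rests on 19 sham and 41 SAH UMIs, and it was 0.200 in the stricter LEC gate.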

How the results depend on the processing

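All 6 pooled ratios kept their direction under each alternative run (nuclear 1.1 to 1.14 in LECs, 1.08 to 1.12 in BECs and 1.13 to 1.28 in fibroblastic stroma; mitochondrial 0.797 to 0.868, 0.810 to 0.865 and 0.870 to 0.931). The counts of nuclear subunits at least 1.2-fold higher ran from 20 to 32, 21 to 27 and 24 to 45, with 71, 71 and 72 assessed at the 20 CPM limit. With equal weight to depth bins 24 of 72 were higher and 4 lower in fibroblastic stroma, and in thinned BECs 27 of 71 were higher and 3 lower. The shares of all genes under these alternatives are not given here, so these counts have no background of their own. Values that left the counting interval of the reported ratio follow, and the cause was not tested. Values and intervals were compared before rounding, so some values look equal to a printed bound or ratio. With a mitochondrial limit of 5%, nuclear ratios were 1.12 (LECs), 1.1 (BECs), 1.22 (fibroblastic stroma) and mitochondrial ratios were 0.867 (LECs), 0.865 (BECs), 0.931 (fibroblastic stroma). With a limit of 20%, nuclear ratios were 1.1 (BECs) and mitochondrial ratios were 0.798 (LECs), 0.810 (BECs), 0.882 (fibroblastic stroma). With at least 1000 genes per cell, mitochondrial ratios were 0.830 (BECs). Without Scrublet doublets, nuclear ratios were 1.09 (BECs) and mitochondrial ratios were 0.825 (BECs). With stricter gates (at least 2 Prox1 UMIs and none of the matrix genes in LECs, and the like), nuclear ratios were 1.14 (LECs), 1.1 (BECs) and mitochondrial ratios were 0.842 (BECs), 0.886 (fibroblastic stroma). Over UMIs outside the mitochondrial genome, nuclear ratios were 1.12 (LECs), 1.08 (BECs) and mitochondrial ratios were 0.797 (LECs), 0.825 (BECs), 0.870 (fibroblastic stroma). Leaving ribosomal proteins out of that total as well, nuclear ratios were 1.1 (BECs), 1.24 (fibroblastic stroma) and mitochondrial ratios were 0.802 (LECs), 0.837 (BECs), 0.897 (fibroblastic stroma). With the median gene set to a ratio of 1, nuclear ratios were 1.14 (LECs), 1.11 (BECs), 1.28 (fibroblastic stroma) and mitochondrial ratios were 0.811 (LECs), 0.845 (BECs), 0.923 (fibroblastic stroma). With cells weighted equally, nuclear ratios were 1.13 (LECs), 1.12 (BECs) and mitochondrial ratios were 0.824 (LECs), 0.850 (BECs), 0.890 (fibroblastic stroma). With cells thinned to 2000 UMIs, nuclear ratios were 1.12 (BECs) and mitochondrial ratios were 0.824 (LECs), 0.841 (BECs), 0.895 (fibroblastic stroma). With equal weight to depth bins, nuclear ratios were 1.12 (LECs), 1.1 (BECs), 1.13 (fibroblastic stroma) and mitochondrial ratios were 0.868 (LECs), 0.829 (BECs), 0.913 (fibroblastic stroma). With equal weight to mitochondrial bins, nuclear ratios were 1.1 (LECs), 1.08 (BECs), 1.19 (fibroblastic stroma). For 76 genes that the rule names, 2396 of 2841 alternative values lay inside the interval, 443 outside it, and 2 turned direction: Cox4i2 in LECs under stricter gates (0.200) and Cox8b in fibroblastic stroma at the 5% limit (1.16), both on few UMIs. Removing barcodes common to both libraries and limiting the background to short genes were chosen after seeing the data. No paired analysis was possible because each group is 1 library and the labels give no shared replicate number. With no replicates, differences between the libraries and between the operations cannot be told apart, and depth limits the rare isoforms, while the mitochondrial ratios also varied with cell depth.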
